A study of Homo sapiens with 4 samples.

Results

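The transcripts described here are those whose identifiers carry chromosome 3 in their name, measured in a human esophageal cancer cell line, KYSE 170. An identifier such as TC03000630.hg.1 gives the chromosome in the 2 characters after TC and a running number in the next 6 digits. Of 60789 identifiers on the arrays, 3358 begin with TC03, and the 645 with a mean log2 signal of at least 6 over the 4 arrays are the members. They were selected on chromosome and on that mean signal, and the chromosome itself was chosen by the difference between the 2 groups of arrays. Another 2 bright rows of chromosome 3 carry exactly the values of a row on another chromosome and were counted there. The cut at 6 left TC03003093.hg.1 just inside, with a mean signal of 6.0005 and a difference of 0.55, and TC03002972.hg.1 just outside, with 5.9923 and 0.09. Both differences are between these groups on the log2 scale, with each array centred as described below.

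In the STMN1 group, cells stably carried a pCMV6 plasmid with the complete cDNA of STMN1, which encodes stathmin, a protein that binds tubulin and destabilises microtubules. In the vector group they carried pCMV6 alone. Both were selected as stable clones with G418 at 200 µg/ml. Each group has 2 arrays, biological replicates by their labels, which do not say whether they are different clones or cultures of 1 clone. Each array was hybridised with Cy3-labelled RNA from 1 sample. Because of how the chromosome was chosen, every value of that difference below is a description, and limma's results on the members, given for completeness, support nothing.

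Chromosome 3 is of interest in squamous cancers. Its long arm, often present in extra copies there, carries SOX2, a transcription factor of the squamous lineage, ECT2, a protein needed for cell division, and PRKCI, an atypical protein kinase C. Its short arm, often lost, carries VHL, FHIT and RASSF1, which act as tumour suppressors. RNA arrays do not measure DNA copies.

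The 4 arrays were alike in brightness, with 18.2% to 19.1% of all identifiers at a log2 signal of at least 6. The identifier listed for STMN1, which is listed for the microRNA gene MIR3917 as well, had signals of 5.86 and 5.77 on the arrays labelled STMN1, against 6.11 and 6.13 on the arrays labelled vector. It was thus lower, by 0.30 on the log2 scale, where the labels say STMN1 was overexpressed. By its name, TC01002383.hg.1, this identifier is on chromosome 1. The identifiers there with a mean signal of at least 6 had a median difference of -0.27, with each array centred as described below. Whether these values are related was not tested. Which part of STMN1 the identifier's probe reads, and whether the plasmid's cDNA holds that part, is not known here. The groups are therefore called STMN1-labelled and vector-labelled, and every direction rests on those labels. Of 6 squamous markers, 4 had an identifier with a single gene name. DSG3, a desmosomal cadherin, gave 9.55 and 9.63 on the STMN1-labelled arrays, against 9.23 and 8.78 on the vector-labelled ones. KRT5, a basal keratin, gave 6.25 and 7.23 against 9.01 and 8.56. KRT14, its usual partner, gave 5.36 and 5.24 against 6.29 and 6.14, and SOX2 is given with the long-arm genes. The 3 fibroblast markers COL1A1, COL1A2 and VIM and the leukocyte marker PTPRC stayed between 3.22 and 4.48 on every array. Of the markers, KRT5 and KRT14 were lower and DSG3 higher on both STMN1-labelled arrays, and the part of this in the values below was not tested. In such bulk samples fewer cells of a kind and less RNA per cell cannot be told apart.

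In the median, chromosome 3 transcripts lay higher on the STMN1-labelled arrays by a small amount. The median member differed by 0.15 on the log2 scale, a 1.11-fold higher signal, with each array centred on the median of the 10887 bright identifiers of 20 chromosomes. The quartiles of the members ran from -0.07 to 0.37, against -0.20 to 0.19 for all bright identifiers. Relative to their means over the arrays, the members had medians of 0.07 and 0.06 on the STMN1-labelled arrays, against -0.09 and -0.05 on the vector-labelled ones. The 2 groups of arrays did not overlap, which held for several other chromosomes as well. The 4 comparisons of an STMN1-labelled with a vector-labelled array gave differences of these medians from 0.11 to 0.15, while arrays of the same group differed by 0.01 (STMN1-labelled) and -0.04 (vector-labelled).

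Among the members, 66.0% lay above the median difference of all bright identifiers, and 62.2% to 66.8% did so in the 4 single comparisons. By the definition of a median, as many of all bright identifiers lie above it as below. On chromosome 19, where the groups of arrays overlapped, the share was 66.1%, and on chromosome 7 it was 58.9%. Such a share is thus not particular to chromosome 3. On all 4 comparisons together, 222 members (34.4%) were higher on the STMN1-labelled arrays, where the share among all bright identifiers was 18.8%. In the other direction 77 members (11.9%) were lower on all 4, where the share among all was 19.5%. No single member passed the threshold. Over 45592 identifiers, limma called 0 members higher and 0 lower at an adjusted p under 0.05 (Benjamini-Hochberg), as it did of all identifiers (0%). At an unadjusted p under 0.05 there were 84 higher (13%) and 23 lower (3.57%) members, where the shares among all 45592 were 2.58% and 3.32%. Those 45592 include dim identifiers, whereas every member has a mean signal of at least 6, so the sets are unlike. Since the chromosome was chosen by this contrast, nothing is read from these counts. They also turned with 1 array: without vector replicate 1 there were 39 higher and 54 lower, and over all 4 arrays left out in turn 39 to 96 higher and 15 to 54 lower.

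Other chromosomes served as a yardstick. On chromosome 7, with 609 bright identifiers, the array medians were 0.05 and 0.02 (STMN1-labelled) against -0.05 and -0.01 (vector-labelled). On chromosome 19 they were -0.01 and 0.11 against 0.03 and -0.13, so there the groups overlapped. On chromosome 1 they were -0.14 and -0.12 against 0.12 and 0.15, the opposite direction and the largest separation of the 20 chromosomes. The groups were also apart on chromosomes 6, 9, 14 and 16, in the direction of chromosome 3. On chromosomes 4 and 10 they were apart in the opposite direction. Chromosome 1 takes part in the centring. With the arrays centred on chromosomes other than 1 and 3, the median member of chromosome 3 differed by 0.13.

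**Figure D1:**
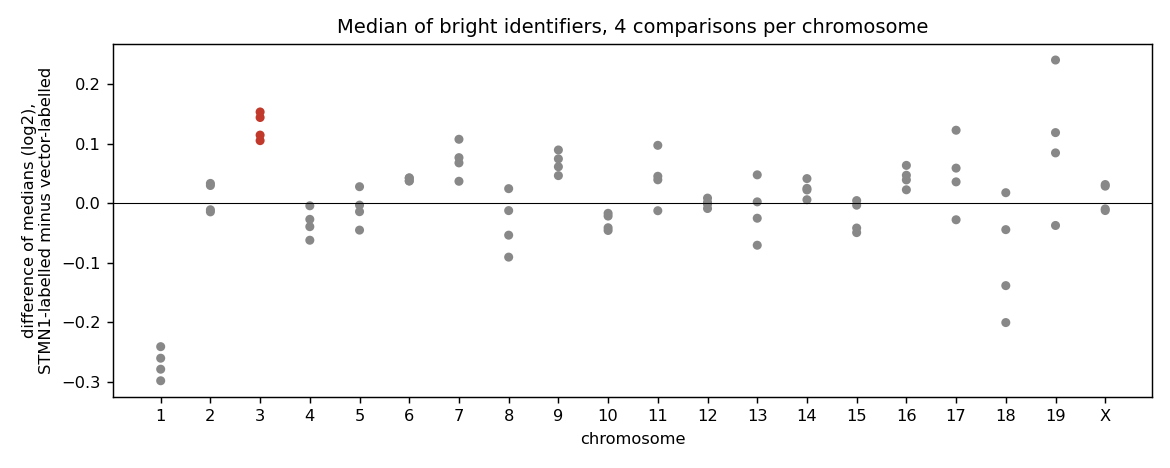
Difference of the median bright signal (log2, STMN1-labelled minus vector-labelled) for each chromosome, with 1 point for each of the 4 comparisons of an STMN1-labelled with a vector-labelled array. The 4 red points of chromosome 3 lie between 0.11 and 0.15, all above 0.

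Along the running number the members alternated between flat and higher stretches. They were cut into 16 windows of about 40 neighbours. A window was called higher where its median difference was at least 0.10 and all 4 comparisons of its array medians lay above 0, and flat where it met neither this nor the mirror rule. By this rule 11 windows were higher, 5 were flat and 0 were lower. Over all 20 chromosomes 14% of 272 windows were higher and 12.1% lower. Chromosome 1 alone held 25 of the lower ones. Without chromosomes 1 and 3, of 225 windows 26 were higher and 8 lower, so few lower windows were usual. Chromosome 7 had 8 higher windows of 15 and chromosome 19 had 3 of 13.

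The first flat run covered numbers 9 to 609, with a median difference of 0.055 over 123 members. Its array medians were 0.02 and 0.02 on the STMN1-labelled arrays, against -0.03 and -0.05 on the vector-labelled ones. The first higher run covered numbers 619 to 1174, with 0.21 over 122 members and array medians of 0.08 and 0.11 against -0.11 and -0.08. The highest window of the chromosome opened this run: numbers 619 to 803, from GTF2E1 to HPS3, had a median difference of 0.32, and 82.9% of its members lay above the median of all bright identifiers. A second flat run held numbers 1175 to 1571, with 0.05 over 80 members. On it the arrays of the 2 groups overlapped, at -0.002 and 0.004 on the STMN1-labelled arrays, against -0.04 and 0.02 on the vector-labelled ones. The last run, numbers 1575 to 3415, was higher throughout its 8 windows, with 0.18 over 320 members and array medians of 0.11 and 0.06 against -0.12 and -0.06. Its windows lay between 0.14 and 0.25.

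**Figure D2:**
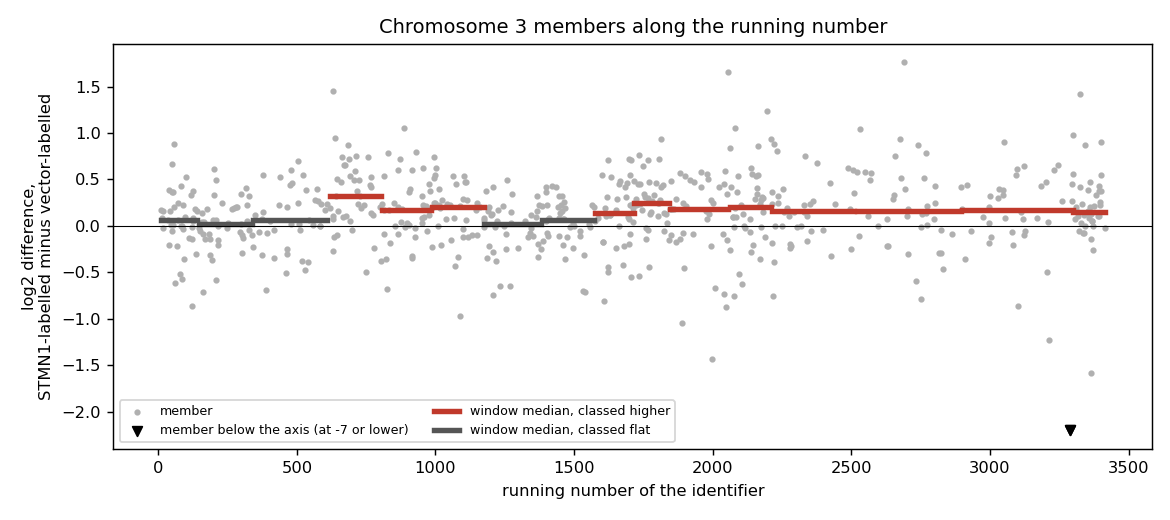
Each grey point is 1 of the 645 members, placed by its running number, with its log2 difference (STMN1-labelled minus vector-labelled, arrays centred on all bright identifiers). Bars are the medians of the 16 windows, red where classed higher and grey where flat. Black triangles stand for TC03003289.hg.1 and TC03003290.hg.1, which lie below the axis. The bars step up at number 619, down at 1175 and up again at 1575.

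The genes listed for the identifiers put these runs in place. GEO's platform annotation lists 1 gene for 428 members, several for 11 and none for 206. RefSeq's gene table for GRCh38.p14 placed 422 of the 428 on chromosome 3. It has the other 6 on other chromosomes, and these were left out of the order. From number 9 to 1112 the 186 placed members followed the order of their genes (a Spearman rank correlation of 1.00 across members, which are not replicates), and all 159 with a known strand lay on the plus strand. From number 1146 to 2180 a further 201 followed the same order a second time (a rank correlation of 1.00), and all 169 with a known strand lay on the minus strand. The flat runs thus hold mostly short-arm genes, passed once on each strand, and the higher runs up to number 2180 mostly long-arm genes. The first flat run reaches into the long arm, where it ends at TIMMDC1, and the last higher run opens with the short-arm gene GBE1. The 120 members from number 2212 to 3298, none of which has a listed gene, cannot be placed. Their 3 windows had medians of 0.16 to 0.17.

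Placed on the arms, with EPHA3 as the last gene of the short and PROS1 as the first of the long, the higher signal belonged mostly to the long arm. Its 264 placed members had a median difference of 0.24 (1.18-fold), with array medians of 0.14 and 0.11 on the STMN1-labelled arrays, against -0.13 and -0.11 on the vector-labelled ones. The 158 placed members of the short arm had a median difference of 0.06, with array medians of 0.01 and 0.01 against -0.04 and -0.03. Subtracting the short from the long arm within each array left 0.13 and 0.10 on the STMN1-labelled arrays, against -0.09 and -0.07 on the vector-labelled ones. These averaged 0.11 ± 0.02 (SD, n = 2) for STMN1-labelled and -0.08 ± 0.01 (SD, n = 2) for vector-labelled arrays, a difference of 0.20. The arms were set apart after the values were seen, so this too is a description. On the long arm 124 members (47.0%) were higher and 21 (7.95%) lower in all 4 comparisons. On the short arm these were 40 (25.3%) and 22 (13.9%). The shares among all bright identifiers were 18.8% and 19.5%.

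Both passes through the chromosome showed a difference between the arms. On the long arm the 109 members of the first pass had a median difference of 0.23, and the 132 members of the second pass 0.24. On the short arm the corresponding 77 and 69 members had 0.04 and 0.06. A last set of numbers, from 3318 to 3415, mixes both strands and arms, with 0.13 over 23 long-arm members and 0.15 over 12 short-arm ones.

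**Figure D3:**
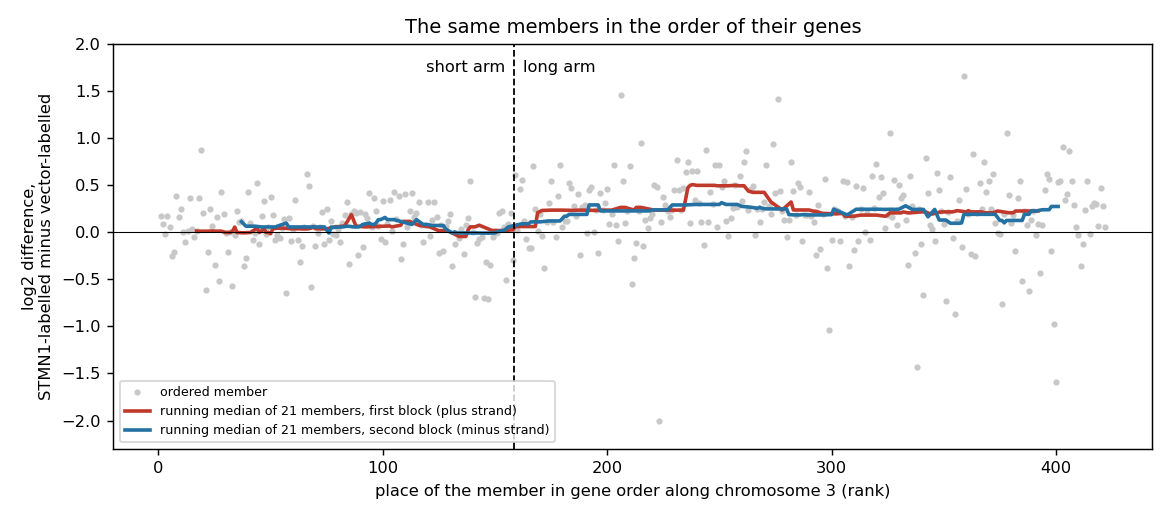
The 422 placed members in the order of their genes along chromosome 3 (rank), with the log2 difference, STMN1-labelled minus vector-labelled, on the vertical axis. Lines are running medians of 21 members for the first pass of numbers (plus strand, red) and the second (minus strand, blue), and the dashed line parts the arms. Both lines run near 0 over the short arm and lie above it over the long arm, where the medians were 0.23 and 0.24.

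In gene order, 21 windows of about 20 placed members gave a finer map. All 13 windows from CLDND1 to LMLN, which hold only long-arm genes, were classed higher, with medians from 0.10 to 0.38. By running number, 15.7% of windows of this size were higher over all chromosomes and 13.3% lower. The step up lay close to the boundary of the arms. The window from ATXN7 to RIOX2, of which 16 of 20 members are on the short arm, had a median difference of 0.00, and the next, from CLDND1 to IFT57, had 0.11. Its array medians were 0.12 and 0.06 on the STMN1-labelled arrays, against -0.06 and -0.10 on the vector-labelled ones.

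The peak lay nearer the start of the long arm, by the short arm, than its end. The window from FTH1P4 to ACAD11 had a median difference of 0.38, with array medians of 0.26 and 0.14 on the STMN1-labelled arrays, against -0.18 and -0.20 on the vector-labelled ones. The window before it, from HEG1 to RAB7A, had 0.33, and 95.0% of its members lay above the median of all bright identifiers. Toward the end of the arm the excess was smaller in the window from RFC4 to PCYT1A (0.10) and larger again in the last, from TM4SF19 to LMLN (0.29). In 3 long-arm windows the arrays of at least 1 group lay further apart than the nearest arrays of different groups. From SCARNA7 to ECT2 these were the vector-labelled arrays, at -0.11 and -0.01. From TBL1XR1 to YEATS2 this held for the STMN1-labelled arrays, at 0.16 and 0.05, and for the vector-labelled ones, at -0.21 and 0.00, where the nearest arrays of the 2 groups were 0.05 apart. From PARL to DNAJB11 they were the STMN1-labelled arrays, at 0.04 and 0.19.

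On the short arm, 2 neighbouring windows of 8 were classed higher and the other 6 flat. They run from KLHL18 to RHOA, with a median difference of 0.19, and from APEH to WDR82, with 0.15. Over their 40 members the array medians were 0.06 and 0.10 on the STMN1-labelled arrays, against -0.04 and -0.12 on the vector-labelled ones. In the second of them the replicates differed by -0.12 (STMN1-labelled) and 0.13 (vector-labelled), more than the smallest distance between the groups, 0.08. The 4 windows before, from TRNT1 to SETD2, had a common median of 0.04, and the 2 after, from NT5DC2 to RIOX2, of 0.01.

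**Figure D4:**
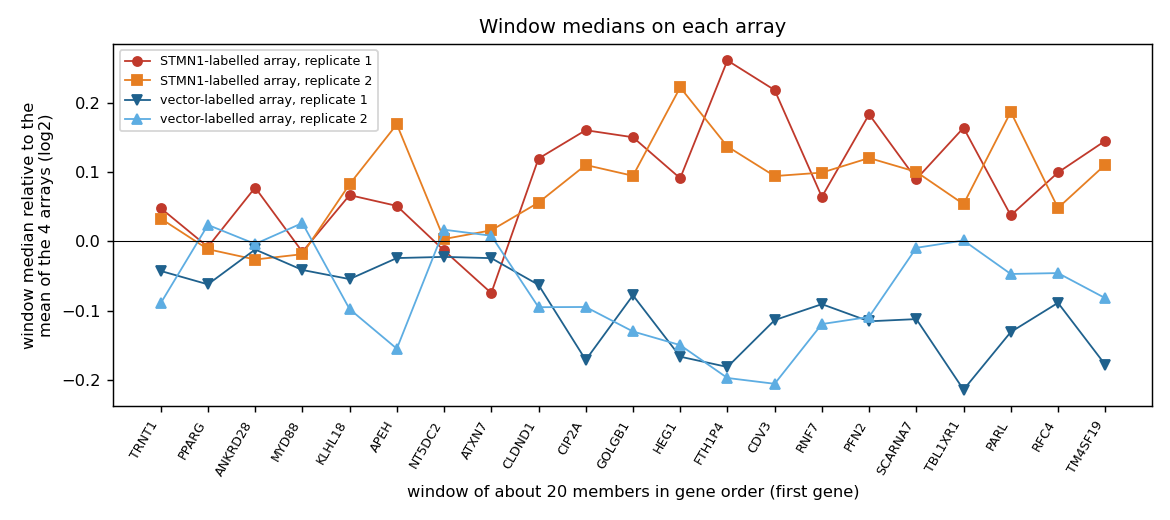
Median of each window of about 20 placed members on each of the 4 arrays, relative to the members' means over the arrays (log2), with windows in gene order and named by their first gene. From the CLDND1 window on, both STMN1-labelled lines lie above both vector-labelled lines, and before it the lines cross except in the TRNT1, KLHL18 and APEH windows.

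The long arm lay higher in each class of signal strength among the members. Its median was 0.23 for 120 placed members with a mean signal of 6 to 8, 0.25 for 83 at 8 to 10 and 0.32 for 40 at 10 to 12. Above 12 it was 0.19 for 21 members, and there the comparisons ran from -0.05 to 0.35. On the short arm the same classes had 0.06, 0.06, -0.01 and 0.08. Below the cut, where identifiers are not members, the medians were near 0. Long-arm identifiers with a mean of 4 to 6 had a median difference of 0.03 (106 identifiers), against 0.01 on the short arm (145), and those under 4 had 0.03 on both arms. The table gives no detection calls, so how many of these lie above background is not known.

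The listed cancer genes of the long arm lay on both sides of 0. Of 10 listed, 8 had an identifier with a single gene name, and all 8 were members. In all 4 comparisons 3 were higher and 1 was lower on the STMN1-labelled arrays, where 18.8% and 19.5% of all bright identifiers and 47.0% and 7.95% of the placed long-arm members were. Their median difference was 0.20, against 0.01 for all bright identifiers. None passed the threshold in limma. ECT2 had signals of 10.15 and 10.92 on the STMN1-labelled arrays, against 9.93 and 9.59 on the vector-labelled ones, a difference of 0.78. TFRC, the transferrin receptor that brings iron into cells, had 11.94 and 12.19 against 11.47 and 11.62, a difference of 0.52. FXR1, an RNA-binding protein, had 9.74 and 9.72 against 9.47 and 9.58, a difference of 0.20 that lies close to the median of its arm. These 3 genes had no overlap between the groups.

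PRKCI went the other way, with 11.94 and 11.96 on the STMN1-labelled arrays, against 12.10 and 12.52 on the vector-labelled ones, a difference of -0.36. SOX2 had 9.18 and 10.20 against 9.78 and 9.74, so the STMN1-labelled arrays lay on either side of the vector-labelled ones. EIF4G1, a scaffold of translation initiation, had 11.44 and 11.85 against 11.17 and 11.64. ATR, a kinase of the DNA damage checkpoint, had 5.73 and 6.47 against 5.87 and 5.99. MECOM, a zinc finger transcription factor, had 6.04 and 6.23 against 6.14 and 6.001. In these last 4 genes the groups overlapped.

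Of the 10 short-arm genes listed, 8 had an identifier with a single gene name. Of these, 6 were members, and 0 were higher or lower in all 4 comparisons. Over all bright identifiers 18.8% were higher and 19.5% lower, and 6 genes are too few to set against these shares. Their median difference was 0.09. VHL, the substrate receptor of a ubiquitin ligase that marks hypoxia-inducible factors, had 10.14 and 9.62 on the STMN1-labelled arrays, against 9.27 and 9.79 on the vector-labelled ones. RHOA, a small GTPase of the actin cytoskeleton, was the brightest of them, with 14.83 and 14.88 against 14.63 and 14.94. TGFBR2, a receptor of TGF-beta, had 7.53 and 7.89 against 7.56 and 7.94. All 3 overlapped between the groups. CTNNB1, which encodes beta-catenin, had 9.17 and 9.29 against 9.29 and 9.50. SETD2, a histone H3 methyltransferase, had 6.35 and 6.95 against 6.38 and 6.74, and PBRM1, a subunit of a chromatin remodelling complex, 6.90 and 7.23 against 6.80 and 7.04. RASSF1 and FHIT were dim on every array, at 2.95 to 3.76, and are not members.

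Single members stood far outside these shifts, in both directions. At least 2-fold higher in all 4 comparisons were 2 members (0.310%, against 0.184% of all bright identifiers), and 5 were at least 2-fold lower (0.775%, against 0.331%). Of the 5, TNIK, TC03003289.hg.1 and TC03003290.hg.1 had a mean under 6 on the STMN1-labelled arrays and reached the cut of 6 through the vector-labelled arrays, where they are high, so nothing is read from the share. All 7 lay in windows classed higher, so the 5 lower ones went against their run. No member of a flat window reached 2-fold in either direction in all 4 comparisons. With 1 array left out only 2 comparisons remain. The higher count was then 11 without STMN1 replicate 1, 8 without STMN1 replicate 2 and 9 without vector replicate 2, and the lower count was 9 without STMN1 replicate 2 and 14 without vector replicate 1.

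Of the 5 named genes among the members that stand furthest apart, 3 were matched in RefSeq's promoter table and are shown with the 250 bases before their start on GRCh38.p14, all on the minus strand, with every CpG in capitals. HEG1 and TNIK went against the run and TRA2B went with it.
HEG1, chr3:125055998-125056247: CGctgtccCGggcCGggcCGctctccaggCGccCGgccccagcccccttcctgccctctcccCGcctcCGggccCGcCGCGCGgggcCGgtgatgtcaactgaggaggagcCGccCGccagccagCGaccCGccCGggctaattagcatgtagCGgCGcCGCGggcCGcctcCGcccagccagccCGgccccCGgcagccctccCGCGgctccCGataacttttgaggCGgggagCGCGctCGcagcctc
TNIK, chr3:171460409-171460658: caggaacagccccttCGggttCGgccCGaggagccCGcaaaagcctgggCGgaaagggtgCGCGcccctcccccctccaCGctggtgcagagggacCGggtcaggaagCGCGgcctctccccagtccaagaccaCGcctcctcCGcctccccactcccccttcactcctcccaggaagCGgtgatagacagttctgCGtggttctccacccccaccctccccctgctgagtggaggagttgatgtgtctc
TRA2B, chr3:185938015-185938264: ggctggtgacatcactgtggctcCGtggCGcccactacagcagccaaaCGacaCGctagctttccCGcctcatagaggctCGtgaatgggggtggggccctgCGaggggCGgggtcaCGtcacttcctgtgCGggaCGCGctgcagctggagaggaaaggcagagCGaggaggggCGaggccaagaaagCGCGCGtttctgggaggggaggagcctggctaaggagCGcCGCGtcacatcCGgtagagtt
The stretch held 33 CpG for HEG1, 15 for TNIK (1 of its 2 listed starts) and 21 for TRA2B, against a median of 11 over 35116 RefSeq promoters. All 3 are thus richer in CpG than the median promoter, whichever way their signal lay.

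HEG1, which encodes a transmembrane protein of cell junctions in the vessel wall and heart, had signals of 9.73 and 8.81 on the STMN1-labelled arrays, against 10.92 and 11.65 on the vector-labelled ones. The difference was -2.01, a 4.04-fold lower signal, inside a gene-order window whose median was 0.33. TNIK, a kinase that acts in Wnt signalling, had 5.36 and 5.53 against 6.78 and 7.01, a difference of -1.45 within a window at 0.21. MUC20, a membrane mucin, had 7.86 and 8.04 against 9.77 and 9.33, a difference of -1.60. It has a near-identical pseudogene copy on the same chromosome, so its signal may not come from MUC20 alone. In these 3 genes both STMN1-labelled arrays were lower than both vector-labelled ones by at least 1.19 on the log2 scale.

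The other 2 members against the run are TC03003290.hg.1 and TC03003289.hg.1, consecutive numbers with no listed gene. TC03003290.hg.1 had 6.05 and 5.91 on the STMN1-labelled arrays, against 13.85 and 15.22 on the vector-labelled ones. TC03003289.hg.1 had 4.73 and 5.11 against 11.46 and 12.53. The vector-labelled values of both lie at percentiles of 97.5 to 99.4 of their arrays, whereas the STMN1-labelled values lie at 71.6 to 82.0. The differences, -8.56 and -7.07, are the largest of all members in size, and HEG1 comes next. The smallest of their 4 comparisons in size were -7.80 and -6.35. Over the 45592 identifiers tested, with all arrays, the values as deposited and no replicate block, limma called neither of them. It called both lower when only bright identifiers were tested. It also called both with the replicate numbers crossed between the groups, a pairing added after seeing the data.

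Ahead of the run stood CSTA, TC03002690.hg.1 and TRA2B, ranked by the smallest of their 4 comparisons. CSTA, cystatin A, is an inhibitor of cysteine proteases found in squamous epithelia. It had 10.57 and 10.28 on the STMN1-labelled arrays, against 8.98 and 8.99 on the vector-labelled ones, a difference of 1.44 (2.71-fold) within a gene-order window at 0.17. Its neighbours by number did not share this: TC03000629.hg.1 differed by 0.06 and FAM162A by 0.09. TC03002690.hg.1, with no listed gene, had 12.06 and 11.26 against 9.73 and 10.10, a difference of 1.75, and the dim identifiers on either side of it differed by 0.03 and 0.13. TRA2B, a regulator of splicing, had 8.10 and 8.23 against 7.03 and 7.22, a difference of 1.04 within a window at 0.23, and was included because its smallest comparison, 0.88, came next after the 2-fold ones. By mean difference, and chosen after their values were seen, LAMP3 (1.643) and IL20RB (1.41) lay further ahead than TRA2B, but with wider replicates. LAMP3, a lysosomal membrane protein, had 8.26 and 6.82 on the STMN1-labelled arrays, against 5.83 and 5.97 on the vector-labelled ones. IL20RB, a cytokine receptor subunit, had 9.12 and 7.09 against 6.52 and 6.87.

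**Figure D5:**
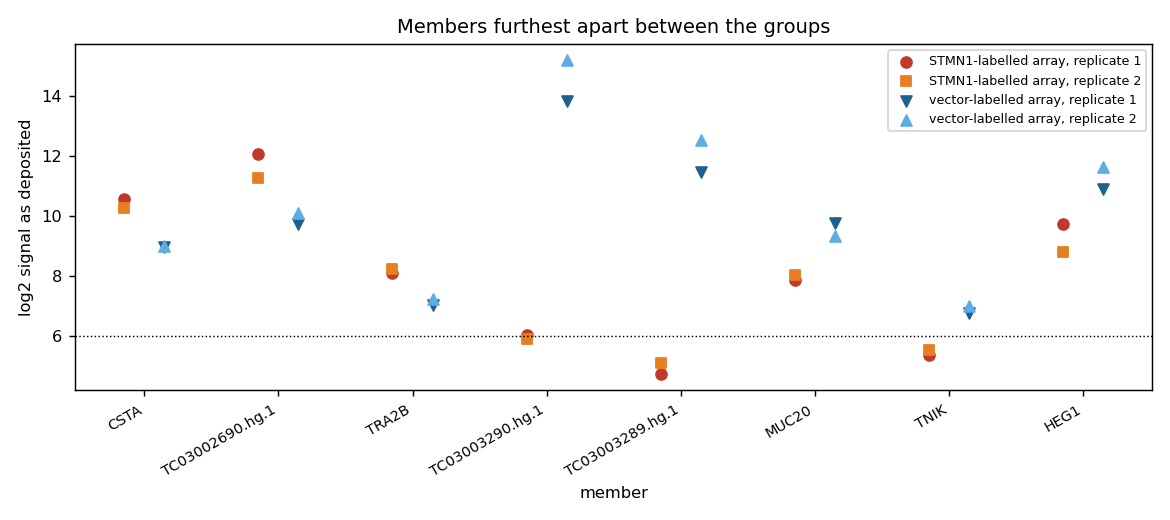
Log2 signal as deposited on each of the 4 arrays for the 3 members that are higher with the largest smallest comparison (left) and the 5 at least 2-fold lower in all 4 comparisons (right), STMN1-labelled arrays to the left of vector-labelled ones. The dotted line marks a signal of 6. The groups do not overlap in any of the 8, and the distance is widest in TC03003290.hg.1, at 6.05 and 5.91 against 13.85 and 15.22.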

How the data were processed

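Per the submitters' processing notes, Agilent Feature Extraction 10.7.1.1 was used. The identifiers have the form of Affymetrix transcript clusters, although the software named is Agilent's. How each identifier's value was made from the spots of the array is not known here. How background and normalization were handled, and the build, is not given in the sources used. Labelling of 0.2 µg RNA with Cy3 is per the labels' protocols. The authors deposited 1 log2 signal per identifier and array; the scale was read from the values, and no detection calls come with them, so precision is limited by having 2 arrays a group. Differences of single members and limma 3.58.1 in R 4.3.3 (lmFit, eBayes, no replicate block, identifiers above the 25th percentile of mean signal) use the values as deposited. Medians, windows and runs use values relative to each identifier's mean, with each array centred on all bright identifiers; the centring constants lie between -0.08 and 0.08. P-values reflect only how far these samples spread, which may be technical. The fit and the window rule were tested on simulated data. For the rule, the simulated shifts were larger than any window median of chromosome 3, so shifts of the size seen here were not covered. The rule for named members takes those at least 2-fold apart in all 4 comparisons, filled to 3 per direction by the largest smallest margin, the neighbours by number of the 2 leading ones, and listed genes of both arms. Of the table's identifiers, 21225 have 1 gene symbol, 1288 several and 38276 none; 411 members matched RefSeq by gene ID and 17 by symbol. Members, lists and rules were chosen with earlier results of these data known, and the arms, promoters and gene-order windows after the values were seen. Other settings tried were scaling, centring, brightness cuts, window sizes and leaving out each array.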

Additional observations from a re-analysis of the deposited data

How the results depend on the processing

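The 11 higher windows of chromosome 3 became 11 or 12 when single arrays were left out, where only 2 comparisons have to lie above 0. With a signal cut of 5 there were 10 higher windows beside 11 flat, and with a cut of 7 there were 8 beside 4. Class thresholds of 0.05 and 0.15 gave 14 and 9 higher windows. Under any setting run, 0 windows were lower. The median of all members was 0.10 with a signal cut of 5, 0.17 with a cut of 7, 0.021 over identifiers of any brightness above the 25th percentile, and 0.12 to 0.15 without single arrays. The share above all bright identifiers was 63.7% with the cut of 5 and 65.1% to 67.0% without single arrays. The long arm was at 0.22 with centring on chromosomes other than 1 and 3, 0.21 after correction for signal strength, 0.065 over any brightness and 0.23 to 0.26 without single arrays. The short arm was at 0.052 after quantile normalization, 0.050 with the cut of 5, 0.038 with centring on chromosomes other than 1 and 3, 0.028 after correction for signal strength, 0.015 over any brightness and 0.042 to 0.077 without single arrays. Long minus short arm was 0.22 with the cut of 7, 0.065 over any brightness and 0.16 to 0.22 without single arrays. The median over all windows classed higher, 0.19 with all arrays, was 0.16 to 0.21 without single arrays. That of the other windows, 0.054 with all arrays, was 0.046 after quantile normalization, 0.065 with the cut of 7, 0.035 with centring on chromosomes other than 1 and 3, 0.025 after correction for signal strength, 0.016 and 0.075 with class thresholds of 0.05 and 0.15, and 0.023 to 0.039 without single arrays. With windows of about 20 there were 20 higher and 12 flat, with about 80 there were 6 and 2. Flat windows numbered 11 with the cut of 5, 2 with a class threshold of 0.05, and 4 to 5 without single arrays. Fewer or more windows follow from their size and from the number of members. Members at least 2-fold higher numbered 2 to 11 without single arrays, 2-fold lower ones 5 to 14, and members against their run 6 to 15. Limma called 2 members lower with equal 75th percentiles, 2 with only bright identifiers tested and 0 to 2 without single arrays (2 without vector replicate 1, 1 without vector replicate 2), each time TC03003290.hg.1 and, where 2, TC03003289.hg.1, which both pass the brightness cut through the vector-labelled arrays. A group left with 1 array borrows its spread from the 2 arrays of the other. With the replicate block limma again called 0 members, with 90 (higher) and 28 (lower) before adjustment. Deviations of same-numbered arrays correlated at 0.14 over tested identifiers, -0.10 over bright ones and -0.19 over the members, and 2 pairs cannot settle a pairing. With the numbers crossed between the groups, a pairing added after seeing the data, limma called 0 members higher and 2 lower, TC03003289.hg.1 and TC03003290.hg.1. The cause was not tested for the other changes.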

Other observations

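Only 3 genes had more than 1 placed member, all on the long arm, with 2 members each. With each array centred on all bright identifiers, the members of HACD2 differed by 0.04 and 0.15 between the STMN1-labelled and vector-labelled arrays. Those of CRYBG3 differed by 0.03 and 0.46, and those of DNAJB11 by -0.20 and 0.19. The spread between identifiers of 1 gene thus reached 0.44, and for DNAJB11 they lay on opposite sides of 0.

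Bright identifiers were unevenly spaced along the running number. Among the numbers with listed genes they made up 15.6% to 34.2% of the identifiers in a window, and in the 3 windows without listed genes 9.98% to 13.4%. The median signal of the windows lay between 7.33 and 8.69 and was lowest in the window from number 3299 to 3415.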
